A study of Arabidopsis thaliana with 38 samples.

Results

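The ribosomal stalk genes described here encode the acidic proteins P0, P1, P2 and P3 of Arabidopsis thaliana. They are 10 loci chosen by name as genes of these proteins, and each had exactly 1 probe set annotated to it alone, among 22746 probe sets tested. The 10 genes are 3 of P0 (RPP0A, AT2G40010; RPP0B, AT3G09200; RPP0C, AT3G11250), 3 of P1 (RPP1A, AT1G01100; RPP1B, AT4G00810; RPP1C, AT5G47700), 3 of P2 (RPP2B, AT2G27710; RPP2C, AT3G28500; RPP2D, AT3G44590) and 1 of P3 (RPP3A, AT4G25890). The annotation gives only the loci, and the gene names follow the usual nomenclature of plant ribosomal proteins. None was dropped by a filter. Membership is a list of loci with no cutoff on a measured value, but it was chosen with earlier results of these data known. The list is not complete: RPP2A, RPP2E and RPP3B also had a probe set of their own and are described apart from the 10.

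The stalk is a flexible arm of the large ribosomal subunit. P0 is its base: it binds the ribosomal RNA beside the protein uL11 (RPL12 in plants) and carries dimers of the small proteins P1 and P2, whose tails recruit the GTPase translation factors and stimulate their activity. P3 is a P1/P2-like protein found in plants. Each protein is made from several paralogous genes, and plant ribosomes can be built with different paralogs. CSP1 is a cold shock domain protein that binds RNA, and in Escherichia coli proteins of that class act as RNA chaperones in the cold.

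The series followed Col-0 rosettes at 25 days of age on 38 Affymetrix ATH1 arrays from 3 lines, with the biological replicates the design text names. The line atcsp1-1, a CSP1 mutant, had 8 arrays, the line 35S:AtCSP1-FH#11 (CSP1-FH), which expresses a tagged CSP1, had 12, and 35S:HF-RPL18 (HF-RPL18), with a tagged RPL18 of the large subunit, had 18. Each of the 2 transgenes is driven by the constitutive 35S promoter. The group size was 2 arrays in atcsp1-1 and CSP1-FH and 3 in HF-RPL18. Cold plants were held for 12 h at 4 °C from 2 h after lights on, and non-stress plants stayed at 23 °C. The cold chamber was also dimmer (50 against 100 µE), so temperature and light cannot be told apart. The RNA pools were CSP1-IP (RNA recovered with CSP1 antibody beads from formaldehyde-treated leaves, 10 arrays), polysomal RNA (at least 2 ribosomes per mRNA, 14 arrays) and total RNA (14 arrays). No CSP1-IP array of atcsp1-1, and no immunopurification without CSP1, was analysed here. A higher CSP1-IP value is therefore a difference between pools, and its share due to CSP1 was not tested.

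As a class, CSP1-IP arrays differed from polysomal and total ones. The standard deviation over their probe sets was 1.83 to 2.14, against 2.22 to 2.32 on polysomal arrays and total arrays together, and the 3′ minus 5′ difference of the GAPDH control probe sets had a median of 6.90 on CSP1-IP arrays, 1.47 on polysomal arrays and 1.29 on total arrays (log2). The actin control did not share this rise: its 3′ minus 5′ medians were 3.53 on CSP1-IP, 3.92 on polysomal and 3.79 on total arrays. The labelling protocol also names different RNA amounts for CSP1-IP and the other pools. Of 8 listed leaf genes the 2 with a named probe set were high in total RNA (RCA 13.3 to 13.6), and the root hair gene EXPA7 was at 3.16 to 3.63. In total RNA the cold marker COR47 was at 13.1 to 13.4 in the cold and 8.41 to 9.50 without stress. The CSP1 gene itself had no named probe set, so the mutation and the transgene were not checked. Values are RMA log2 values, and they did not have the same distribution on all arrays: the spread over probe sets was smaller on CSP1-IP arrays. Whether all arrays went through RMA together was not stated. The values are relative levels, and in these whole rosettes fewer cells of a type and less RNA per cell cannot be told apart. They are not compared between genes. Replicates varied more in CSP1-IP RNA (SD of deviations 0.30 to 0.50) than in polysomal (0.17 to 0.28) and total RNA (0.17 to 0.26). The limma fit behind the single-gene p-values gave all pools the same spread, so those of CSP1-IP comparisons can be too small.

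The 3 P0 genes differed in CSP1-IP RNA. RPP0A was higher in CSP1-IP than in total RNA in both lines and both conditions, by 3.13- to 6.45-fold. RPP0B was also higher in all 4 comparisons, by 1.68- to 2.89-fold, with a call in cold HF-RPL18 that 2 alternatives ended, and RPP0C was lower in all 4, by 1.57- to 1.89-fold, a call that did not survive loess normalisation. The group means of RPP0A ran CSP1-IP, total, polysomal from high to low in every line and condition that had all 3 pools. Those of RPP0B ran CSP1-IP, polysomal, total, and those of RPP0C polysomal, total, CSP1-IP.

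In the cold, RPP0A read 7.99 and 7.84 on CSP1-FH CSP1-IP arrays, 5.08 and 4.88 on polysomal arrays and 5.51 and 5.39 on total arrays. Without stress it read 8.00 and 7.51 on CSP1-IP arrays of CSP1-FH, 4.68 and 4.51 on polysomal arrays and 5.19 and 4.94 on total arrays. The CSP1-IP arrays of this line stood above all its other arrays. In HF-RPL18 in the cold RPP0A read 7.96, 6.72 and 6.13 on CSP1-IP arrays, 4.84, 4.13 and 5.01 on polysomal arrays, and 5.60, 5.06 and 5.20 on total arrays. Its non-stress values in HF-RPL18 were 7.68, 7.78 and 7.36 on CSP1-IP arrays, 4.75, 4.67 and 4.85 on polysomal arrays, and 5.34, 5.06 and 4.43 on total arrays. CSP1-IP arrays again lay above every polysomal and total array, and cold array 3 was the lowest of the CSP1-IP arrays. Such separation was common: CSP1-IP and total groups did not overlap for 68.0% (cold) and 70.4% (non-stress) of all probe sets in CSP1-FH. In HF-RPL18 these shares were 52.4% and 45.8%. Against polysomal arrays they were 65.0% and 63.4% in CSP1-FH and 43.3% and 41.5% in HF-RPL18.

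The log2 difference of RPP0A between CSP1-IP and total RNA was 2.46 (SE 0.37, adjusted p = 2.45e-05) in CSP1-FH in the cold and 2.69 (SE 0.37, adjusted p = 4.01e-06) without stress. In HF-RPL18 it was 1.65 (SE 0.31, adjusted p = 8.65e-05) in the cold and 2.66 (SE 0.31, adjusted p = 1.74e-07) without stress. Against polysomal RNA the differences were larger, at 2.93 and 3.16 in CSP1-FH in the cold and without stress and 2.28 and 2.85 in HF-RPL18 (adjusted p at most 1.86e-06). RPP0A kept its call in all 8 comparisons under each alternative that was run. Leaving out 1 array moved the HF-RPL18 cold difference over total the most, to 1.14 without CSP1-IP array 1. A list of 67 other 60S ribosomal protein genes with their own probe set gave a point of reference. With the deposited values RPP0A lay above all 67 in each of the 4 comparisons with total RNA and the 4 with polysomal RNA, where the highest of the 67 stood at 1.57 to 2.72. The margin was narrowest in cold HF-RPL18 over total RNA, at 1.65 against 1.57. The RPP0A probe set was of middle brightness in total RNA (percentile 57.9 of tested probe sets). Its rank among the 67 was not taken after loess normalisation.

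**Figure D1:**
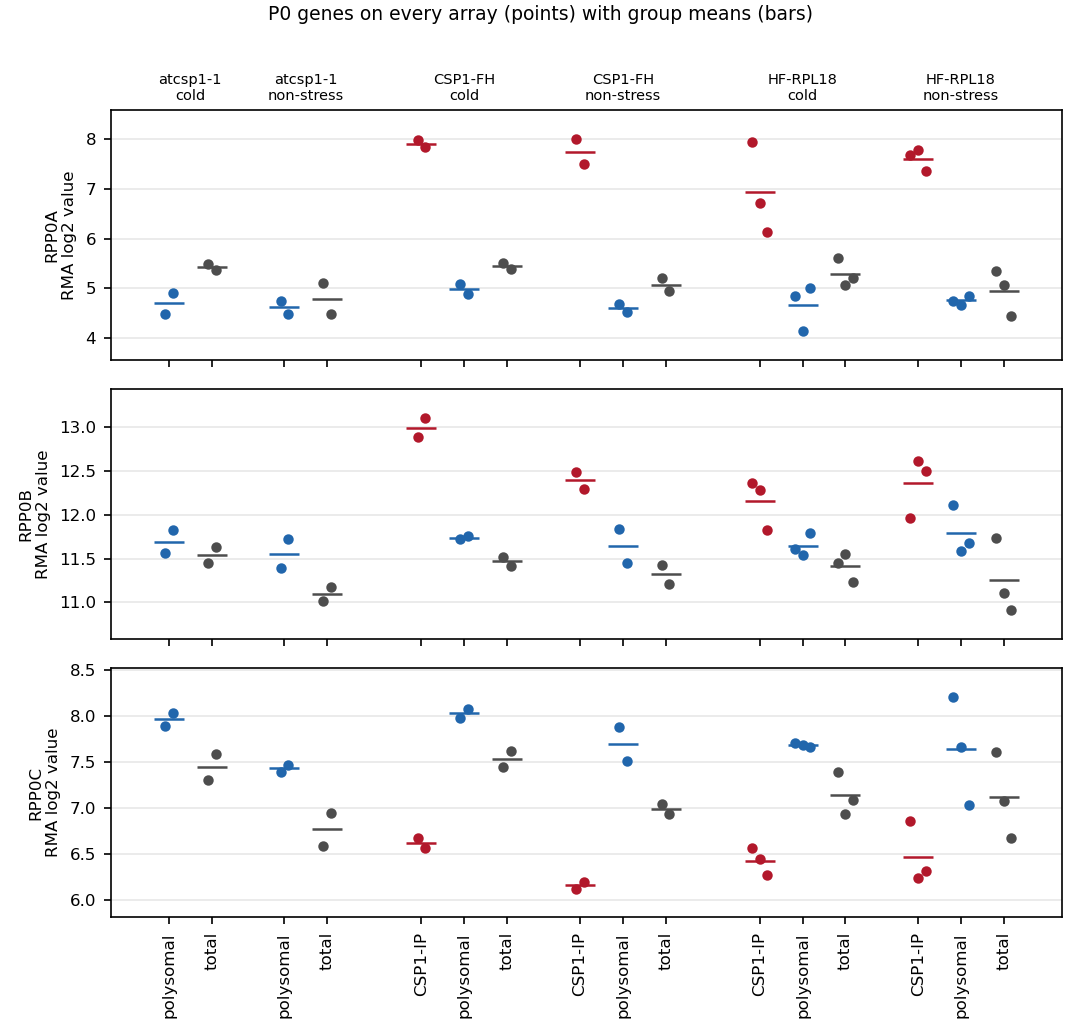
RMA log2 values (vertical axes) of RPP0A, RPP0B and RPP0C on each array, by line, condition and RNA pool; points are arrays and bars are group means. RPP0A and RPP0B were highest in CSP1-IP RNA, and RPP0C was lowest there (its lower level against total RNA was not called after loess normalisation, which turned the HF-RPL18 cold value to 0.075).

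RPP0B read 12.89 and 13.11 on CSP1-FH CSP1-IP arrays in the cold, against 11.52 and 11.42 on the total arrays. Without stress it read 12.50 and 12.30 on CSP1-IP arrays and 11.43 and 11.21 on total arrays. The groups did not overlap, as for 68.0% and 70.4% of all probe sets in the cold and without stress. The differences were 1.53 (SE 0.25, adjusted p = 5.75e-05) in the cold and 1.08 (SE 0.25, adjusted p = 0.00148) without stress. In HF-RPL18 they were 0.75 (SE 0.20, adjusted p = 0.00344) and 1.11 (SE 0.20, adjusted p = 0.000121), again without overlap. The cold HF-RPL18 call was lost with array weights (0.77, adjusted p = 0.0716) and in a fit of only the groups compared (0.75, adjusted p = 0.0559). Over polysomal RNA the differences were smaller, at 1.26 and 0.76 in CSP1-FH in the cold and without stress and 0.51 and 0.57 in HF-RPL18, with adjusted p-values between 0.000447 and 0.0402. Only the first of these kept its call without each array in turn. The CSP1-FH non-stress call was lost without CSP1-IP array 1 (0.66) or polysomal array 2 (0.56). The HF-RPL18 cold call was lost without CSP1-IP array 1 (0.41) or 2 (0.45) or polysomal array 1 (0.49) or 2 (0.46), and the non-stress call without CSP1-IP array 2 (0.44) or 3 (0.50) or polysomal array 2 (0.46) or 3 (0.52). After subtraction of array medians these 3 were at 0.63, 0.37 and 0.49 and were no longer called, and array weights and a fit of only the groups compared ended the same 3 calls. In HF-RPL18 without stress CSP1-IP and polysomal arrays overlapped.

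RPP0C went the other way. It read 6.67 and 6.56 on CSP1-FH CSP1-IP arrays in the cold, 7.98 and 8.08 on polysomal arrays and 7.44 and 7.62 on total arrays. Without stress its values in CSP1-FH were 6.12 and 6.19 in CSP1-IP, 7.88 and 7.52 in polysomal and 7.05 and 6.93 in total RNA. Both CSP1-IP groups lay below every polysomal and total array of the line. In HF-RPL18 in the cold it read 6.56, 6.44 and 6.27 in CSP1-IP, 7.70, 7.69 and 7.67 in polysomal and 7.39, 6.93 and 7.09 in total RNA. Its non-stress values there were 6.86, 6.23 and 6.32 in CSP1-IP, 8.21, 7.67 and 7.04 in polysomal and 7.61, 7.08 and 6.67 in total RNA. Only in the last of these did CSP1-IP and total arrays overlap.

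Against polysomal RNA, RPP0C fell by 1.41 (SE 0.28, adjusted p = 0.000445) and 1.54 (SE 0.28, adjusted p = 0.000109) in CSP1-FH in the cold and without stress. It fell by 1.26 (SE 0.23, adjusted p = 6.91e-05) and 1.17 (SE 0.23, adjusted p = 0.000236) in HF-RPL18. These calls stood under each alternative except the HF-RPL18 cold one after loess normalisation (−0.59, adjusted p = 0.0523). Against total RNA the differences were −0.92 (adjusted p = 0.0164) and −0.83 (adjusted p = 0.022) in CSP1-FH and −0.71 (adjusted p = 0.0108) and −0.65 (adjusted p = 0.0308) in HF-RPL18.

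The calls of RPP0C against total RNA were less stable. After loess normalisation the 4 values were −0.43, −0.16, 0.075 and −0.17 in the same order, none called, with a reversed sign in HF-RPL18 in the cold. Array weights also ended all 4 calls (adjusted p between 0.0558 and 0.141), and a fit of only the groups compared ended those of CSP1-FH without stress (adjusted p = 0.0574) and of HF-RPL18 in the cold and without stress (adjusted p = 0.0559 and 0.128). In CSP1-FH the cold call was lost without CSP1-IP array 2 (−0.86) or total array 1 (−1.01) or 2 (−0.82). The CSP1-FH non-stress call was lost without any 1 of its 4 arrays (−0.80 and −0.87 without CSP1-IP array 1 or 2, −0.78 and −0.89 without total array 1 or 2). In HF-RPL18 the cold call was lost without total array 1 (−0.59), and the non-stress call without CSP1-IP array 2 (−0.53) or 3 (−0.57) or total array 1 (−0.41) or 2 (−0.67).

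The smaller proteins P1 and P2 are the mobile part of the stalk. Of their genes RPP2C was the one with a large difference: 7.29 and 8.67 on CSP1-FH non-stress CSP1-IP arrays, against 5.46 and 5.80 on total arrays. In HF-RPL18 without stress it read 8.78, 8.25 and 8.33 in CSP1-IP and 6.16, 6.01 and 5.47 in total RNA. CSP1-IP lay above total RNA in both lines, by 2.35 (SE 0.60, adjusted p = 0.00326) and 2.57 (SE 0.49, adjusted p = 0.000181). The CSP1-FH call was lost without CSP1-IP array 2 (1.66, adjusted p = 0.0925).

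In the cold RPP2C read 7.47 and 8.35 on CSP1-IP arrays of CSP1-FH and 6.44 and 7.01 on total arrays, a difference of 1.18 that did not pass. In HF-RPL18 it read 7.42, 6.89 and 5.25 on cold CSP1-IP arrays and 6.31, 5.99 and 5.79 on total arrays, a difference of 0.49 that did not pass either. The third CSP1-IP array lay below all 3 total arrays, and the other two above them. Over polysomal RNA RPP2C was higher in HF-RPL18 without stress by 1.94 (SE 0.49, adjusted p = 0.00296), and stood at 1.43 (adjusted p = 0.0663) in CSP1-FH without stress. That last value passed after loess normalisation (1.96, adjusted p = 0.0175) and without CSP1-IP array 1 (2.13, adjusted p = 0.023).

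**Figure D2:**
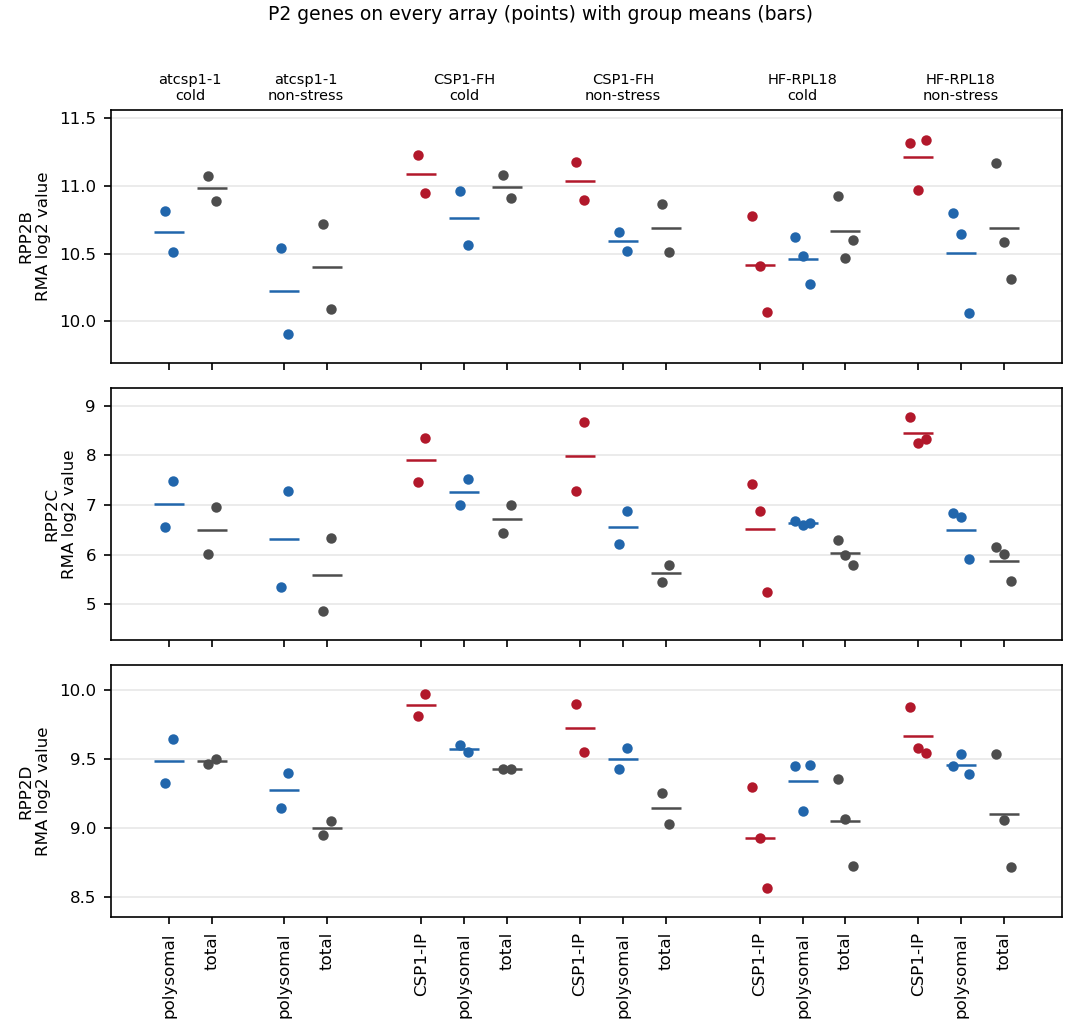
RMA log2 values (vertical axes) of RPP2B, RPP2C and RPP2D on each array, by line, condition and RNA pool; points are arrays and bars are group means. RPP2C had its highest values in non-stress CSP1-IP RNA and HF-RPL18 cold array 3, at 5.25, was the lowest of its CSP1-IP arrays.

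RPP2C also differed most between the arrays of the groups with 2 arrays. In atcsp1-1 the arrays labelled 1 and 2 read 4.87 and 6.33 in non-stress total RNA and 5.35 and 7.28 in non-stress polysomal RNA. In each of the 10 groups with 2 arrays the one labelled 2 was higher, by 0.34 to 1.92, whereas in each of those groups RPP2B was lower on the array labelled 2, by 0.14 to 0.63. No other member went one way in all 10 groups. What sets these arrays apart was not tested.

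RPP1A was higher in CSP1-IP than in total RNA without stress, by 0.68 (SE 0.23, adjusted p = 0.0204) in CSP1-FH, with 12.09 and 11.94 on CSP1-IP arrays and 11.49 and 11.18 on total arrays. In HF-RPL18 without stress it was higher by 0.63 (SE 0.18, adjusted p = 0.0103), with 11.89, 11.88 and 11.70 in CSP1-IP and 11.59, 11.07 and 10.92 in total RNA. Neither pair of groups overlapped, as for 70.4% of all probe sets in CSP1-FH and 45.8% in HF-RPL18. RPP1B (0.75, adjusted p = 0.0256) and RPP2D (0.56, adjusted p = 0.0284) passed in HF-RPL18 without stress, and their CSP1-FH non-stress values of 0.51 and 0.58 did not pass. After loess normalisation both passed in all 4 comparisons (0.69 to 1.35 for RPP1B and 0.71 to 1.38 for RPP2D), and RPP1A passed in the cold too (1.04 in CSP1-FH and 0.81 in HF-RPL18). In a fit of only the groups compared the non-stress calls of RPP1A in CSP1-FH (adjusted p = 0.107) and of RPP1A, RPP1B and RPP2D in HF-RPL18 (adjusted p = 0.0661, 0.0589 and 0.121) were lost, and array weights ended that of RPP1A in CSP1-FH (adjusted p = 0.0936). A difference between the lines in these values was tested and not called. The RPP1A calls were lost without CSP1-FH CSP1-IP array 1 (0.60) or total array 2 (0.53), and without HF-RPL18 total array 3 (0.49). The RPP1B call was lost without CSP1-IP array 1 (0.60) or 3 (0.63) or total array 2 (0.69) or 3 (0.74), and the RPP2D call without CSP1-IP array 1 (0.46) or total array 2 (0.54) or 3 (0.37).

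With the deposited values RPP1C (−0.60 to 0.30), RPP2B (−0.25 to 0.52) and RPP3A, the P3 gene (−0.40 to 0.30), did not pass between CSP1-IP and total RNA, and this depended on the scaling. After loess normalisation RPP2B was higher in all 4 comparisons (0.56 to 1.19), RPP1C in CSP1-FH and HF-RPL18 without stress (1.01 and 0.85), and RPP3A in CSP1-FH without stress (1.07). RPP1C in cold HF-RPL18 was instead called lower after subtraction of array medians (−0.63, adjusted p = 0.0496) and without CSP1-IP array 1 (−0.90) or 2 (−0.72) or total array 2 (−0.72). RPP2B in HF-RPL18 without stress was called without total array 1 (0.76). Against polysomal RNA, RPP3A was lower in HF-RPL18, by −0.96 (SE 0.21, adjusted p = 0.000479) in the cold and −0.61 (SE 0.21, adjusted p = 0.0263) without stress. In the cold it read 8.01, 7.94 and 7.39 on CSP1-IP arrays and 8.76, 8.41 and 9.06 on polysomal arrays, without overlap. The non-stress call was lost without CSP1-IP array 2 (−0.41) or polysomal array 1 (−0.47) or 3 (−0.49), and both were lost after loess normalisation (−0.17 and −0.09) and with array weights (−0.86 and −0.44).

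RPP1C was lower in CSP1-IP than in polysomal RNA of cold HF-RPL18 (−0.97, SE 0.26, adjusted p = 0.00377). It read 10.74, 10.38 and 9.28 on those CSP1-IP arrays and 11.15, 10.78 and 11.39 on the polysomal arrays. That call was lost without CSP1-IP array 3 (−0.54, adjusted p = 0.0599), after loess normalisation (−0.08), with array weights (−0.85) and in a fit of only the groups compared (adjusted p = 0.116). RPP1A, at −0.34 and not called there, was called lower after subtraction of array medians (−0.47, adjusted p = 0.0433) and higher after loess normalisation (0.56, adjusted p = 0.0146), so its direction is not settled. RPP2B was higher in CSP1-IP than in polysomal RNA of non-stress HF-RPL18 (0.71, adjusted p = 0.0243), with 11.31, 10.97 and 11.34 against 10.80, 10.65 and 10.06. That call was lost without CSP1-IP array 1 (0.65) or 3 (0.64) or polysomal array 3 (0.49), with array weights (0.66) and in a fit of only the groups compared (adjusted p = 0.0676).

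Counted by comparison, 3 of the 10 genes passed between CSP1-IP and total RNA in CSP1-FH in the cold (2 higher, 1 lower), where 27.6% of all probe sets passed, and 5 passed without stress (4 higher, 1 lower), where 36.1% passed. In HF-RPL18, 3 passed in the cold (2 higher, 1 lower) against 55.7% of all probe sets, and 7 without stress (6 higher, 1 lower) against 31.8%. Between CSP1-IP and polysomal RNA 3 passed in CSP1-FH in the cold against 26.5% of all probe sets, and 3 without stress against 32.9%. In HF-RPL18 5 passed in the cold against 47.6%, and 6 without stress against 30.6%. With up to 55.7% of all probe sets called, the number of stalk genes called was near the background in most of these comparisons, and the sizes and directions of the single genes carry the description.

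The count rested in part on single arrays. The HF-RPL18 non-stress count of 7 against total RNA was 4 without total array 2 or 3. The CSP1-FH non-stress count of 5 was 3 without CSP1-IP array 1 or 2 or total array 2, and the HF-RPL18 non-stress count of 6 against polysomal RNA was 3 without polysomal array 3.

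The median difference between CSP1-IP and total RNA over the 10 stalk genes was 0.44 in CSP1-FH in the cold and 0.55 without stress, and −0.12 and 0.59 in HF-RPL18. Over all tested probe sets it was 0.16 and 0.20 in CSP1-FH and 0.20 and 0.13 in HF-RPL18. Loess normalisation moved the median of all probe sets by −0.20 to −0.12 in these 4 comparisons. After it 6 stalk genes passed in CSP1-FH in the cold, 9 without stress, 6 in HF-RPL18 in the cold and 8 without stress, all of them higher, whereas with the deposited values 1 gene in each comparison was lower. The 67 other 60S genes were taken with the deposited values only, so they are not set against the loess counts. Their medians were 0.42 and 0.74 in CSP1-FH in the cold and without stress, and 0.23 and 0.93 in HF-RPL18. Of those 67, 18 were higher and 4 lower in CSP1-FH in the cold, 33 and 5 without stress, 21 and 15 in HF-RPL18 in the cold and 42 and 2 without stress.

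**Figure D3:**
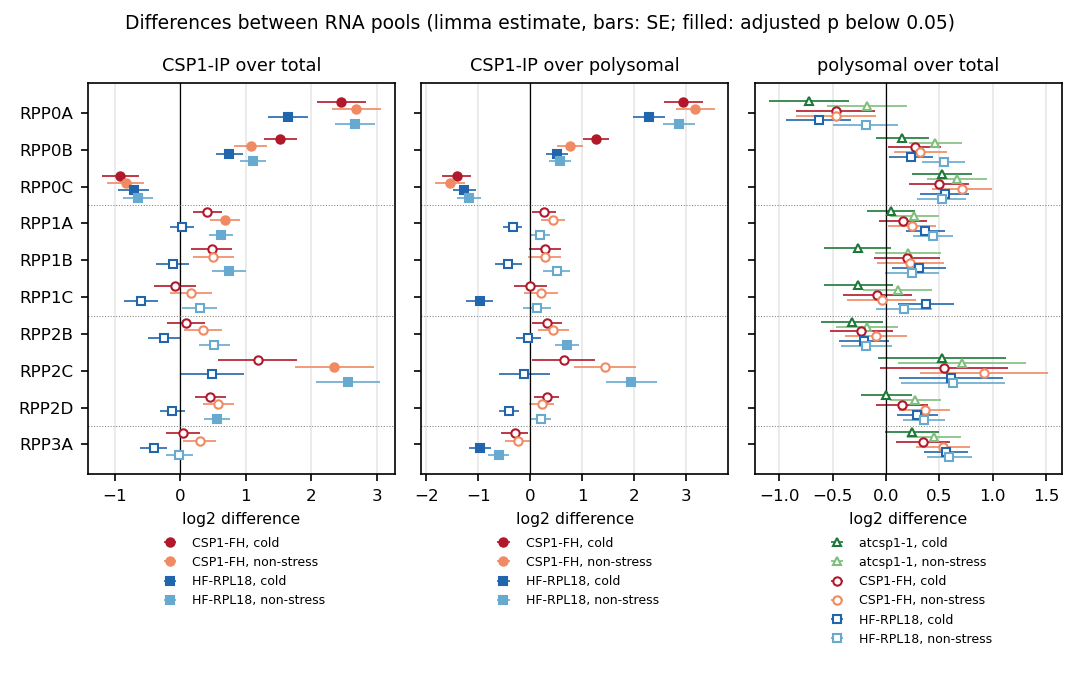
Log2 differences between RNA pools (horizontal axes, bars are SE from limma) for the 10 stalk genes; filled symbols had an adjusted p below 0.05. RPP0A stood between 1.65 and 3.16 in the 8 CSP1-IP comparisons and below 0 in the 6 polysomal ones, and RPP0C had the opposite order except that its HF-RPL18 cold value against total RNA turned to 0.075 after loess normalisation.

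A further 3 stalk genes had a probe set of their own outside the 10. They were fitted with the deposited values only, so whether their calls depend on scaling or single arrays was not tested. RPP2A (AT2G27720), which lies next to RPP2B on its chromosome, was higher in CSP1-IP than in total RNA in HF-RPL18 in the cold (0.52, adjusted p = 0.0259) and without stress (1.34, adjusted p = 6.4e-06) and in CSP1-FH without stress (1.15, adjusted p = 0.000533), with 0.62 (adjusted p = 0.0534) in CSP1-FH in the cold. RPP3B (AT5G57290), the second P3 gene, did not pass in these comparisons (−0.28 to 0.60). RPP2E (AT5G40040) was dim, at 3.48 to 4.53 in CSP1-IP, 3.23 to 3.71 in polysomal and 3.02 to 3.31 in total RNA. It passed upward in 3 of the 4 comparisons with total RNA (0.51 to 0.96 in those 3).

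Of 15 listed stalk partners 5 had their own probe set. These too were fitted with the deposited values only, and whether their calls and directions depend on scaling was not tested. Among the genes of uL11, which sits beside P0 at the stalk base, RPL12C was higher in CSP1-IP than in total RNA in 3 of 4 comparisons (CSP1-FH cold 1.71, adjusted p = 0.00183; CSP1-FH non-stress 0.93, adjusted p = 0.0621; HF-RPL18 cold 1.03 and non-stress 0.89). RPL12A was higher without stress (0.78 in CSP1-FH and 0.69 in HF-RPL18), and RPL12B was lower in cold HF-RPL18 (−1.05, adjusted p = 3.77e-05) with −0.53 to −0.16 elsewhere. Of the exchange factor eEF1B genes, AT5G19510 was lower in the cold in CSP1-FH (−1.14, adjusted p = 0.0123) and HF-RPL18 (−1.54, adjusted p = 5.24e-05), and AT5G12110 did not pass (−0.16 to 0.49). The eEF1A and eEF2 genes had no probe set of their own.

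Paralogs of 1 protein were set against each other, since a constant offset of a probe set drops out of such a difference. An effect of scale that depends on brightness does not drop out, and CSP1-IP arrays had a smaller spread over probe sets. Nor does an effect of 3′ to 5′ coverage that differs between probe sets drop out. On CSP1-IP arrays the GAPDH 3′ minus 5′ difference was larger, though not that of actin. Where the probe sets lie in the stalk mRNAs was not examined. The array values of a pair were subtracted and compared between pools with a 2-sided exact permutation test within line and condition, adjusted over 27 tests (9 pairs in 3 contrasts). For CSP1-IP over total RNA 8 of the 9 pairs passed. RPP0A exceeded RPP0C by 3.14 in this difference (mean 2.37 against −0.78) and RPP0B by 1.25 (mean 2.37 against 1.12), and RPP0B exceeded RPP0C by 1.89. After loess normalisation RPP0A exceeded RPP0C by 2.82 and RPP0B by 0.83, RPP0B exceeded RPP0C by 1.99, and all 3 still passed. With the deposited values each of these 3 had the exact permutation p of 0.000139, the smallest that 14400 permutations can give, adjusted p = 0.00075, and the same sign in 10 of 10 pairs of arrays with the same number. These numbers were not taken as pairing CSP1-IP with total arrays, so the counts of array pairs for this contrast are descriptive only.

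Among the P1 genes RPP1A exceeded RPP1C by 0.49 (exact permutation, adjusted p = 0.00375, 10 of 10 array pairs) and RPP1B exceeded RPP1C by 0.46 (exact permutation, adjusted p = 0.00333, 9 of 10). RPP1A and RPP1B differed by 0.03 (exact permutation, adjusted p = 0.817). Among the P2 genes RPP2C exceeded RPP2D by 1.28 (exact permutation, adjusted p = 0.00328, 9 of 10), and RPP2B minus RPP2C was −1.47 (exact permutation, adjusted p = 0.00268, 9 of 10). RPP2B minus RPP2D was −0.19 (exact permutation, adjusted p = 0.0388, 8 of 10) and was not called without HF-RPL18 arrays numbered 1 (−0.18) or 2 (−0.21) or CSP1-FH arrays numbered 1 (−0.20) or 2 (−0.19). In HF-RPL18 alone it was −0.09 (exact permutation, adjusted p = 0.439) and in CSP1-FH alone −0.30. In CSP1-FH alone no pair can pass, because the smallest exact p there is 0.0556.

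**Figure D4:**
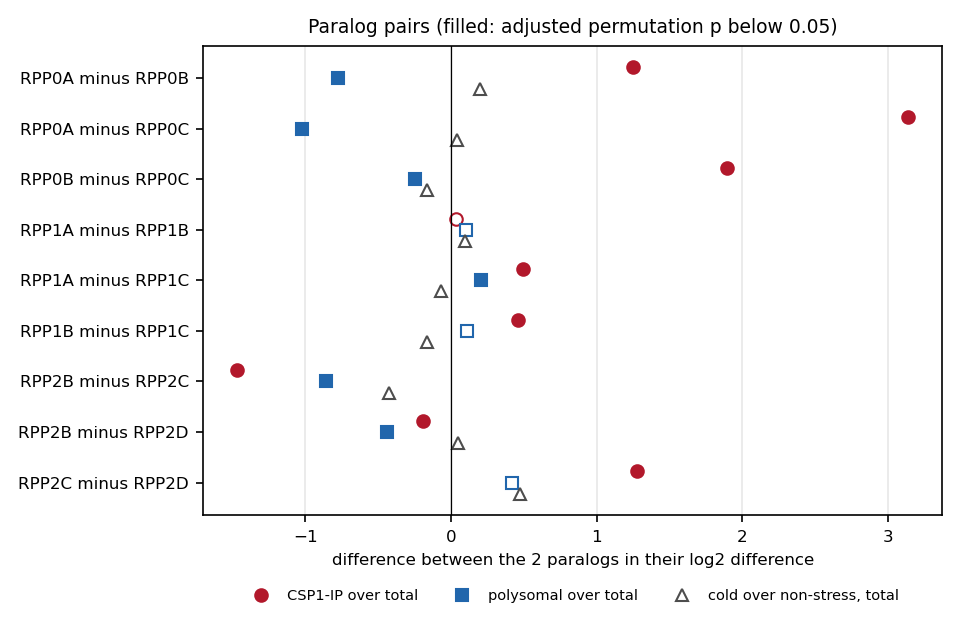
Difference between paralogs in their log2 difference (horizontal axis) for the 9 pairs within P0, P1 and P2, in 3 contrasts; filled symbols had an exact permutation p below 0.05 after adjustment over 27 tests. RPP0A minus RPP0C stood at 3.14 for CSP1-IP over total and −1.02 for polysomal over total, and no pair passed for cold over non-stress.

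On polysomes the P0 order was turned. RPP0A was lower in polysomal than in total RNA in all 6 comparisons, at −0.72 and −0.18 in atcsp1-1 in the cold and without stress, −0.47 in both conditions in CSP1-FH, and −0.63 and −0.19 in HF-RPL18. RPP0C was higher in polysomal RNA in all 6, at 0.52 and 0.67, 0.50 and 0.71, and 0.55 and 0.52 in the same order. RPP2C stood at 0.52 to 0.92 and RPP3A at 0.24 to 0.59. None of these single-gene differences passed, and RPP0A in cold HF-RPL18 passed with array weights (−0.77, adjusted p = 0.0222).

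In limma's test 0 of 10 genes passed in each of the 6 comparisons. Without adjustment 0 genes in the cold and 1 without stress had p below 0.05 in atcsp1-1, 0 and 2 in CSP1-FH, and 3 and 4 in HF-RPL18. Few probe sets passed in this fit, whose spread includes the CSP1-IP arrays. The shares were 0.0308% in the cold and 0% without stress in atcsp1-1, 0.044% and 0.435% in CSP1-FH, and 2.84% and 1.12% in HF-RPL18. In HF-RPL18, where same-numbered polysomal and total arrays deviated together, the replicate number as a block raised the probe sets called to 1142 in the cold and 500 without stress, against 645 and 254 without it, and still called 0 stalk genes. With the CSP1-IP arrays out of the fit RPP3A passed in cold HF-RPL18 (0.56, adjusted p = 0.0477). In that comparison 2726 probe sets were then called, and 3064 with array weights, against 645 in the main fit. The low counts thus depend in part on the spread used.

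Set against each other over all 28 arrays of these pools, 6 of 9 paralog pairs differed in polysomal over total RNA. RPP0A minus RPP0C was −1.02 and RPP0A minus RPP0B was −0.78 (exact permutation, adjusted p = 0.000156 for both), with the same sign in 13 and 14 of 14 array pairs. RPP0B minus RPP0C was −0.25 (exact permutation, adjusted p = 0.00634), so RPP0C had the highest polysomal over total difference of the P0 genes. RPP2B, whose mean difference was −0.20, was below RPP2C by 0.86 and below RPP2D by 0.44 (exact permutation, adjusted p = 0.0139 and 0.00219), each in 14 of 14 array pairs. RPP1A exceeded RPP1C by 0.21 (exact permutation, adjusted p = 0.00994). These 6 kept their call under each of the alternatives run. RPP2C exceeded RPP2D by 0.42 (13 of 14 array pairs), which did not pass (exact permutation, adjusted p = 0.0866). It passed after loess normalisation (0.52, exact permutation, adjusted p = 0.0299). It also passed in a sign permutation that keeps the replicate number as a block (adjusted p = 0.00198), which makes 7 of 9 pairs. The counts of array pairs and this sign permutation include CSP1-FH and atcsp1-1, whose numbers were not taken as pairing the arrays. For those lines the counts are descriptive only.

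Cold did not change the stalk genes in total RNA past the threshold. All 10 differences were positive in atcsp1-1 (median 0.50) and in CSP1-FH (median 0.30), and 5 of 10 were positive in HF-RPL18 (median −0.0028). Over all probe sets the median was −0.02, −0.03 and −0.02, and for the 67 other 60S genes it was 0.54, 0.33 and 0.15. None of the 10 passed, where 7.15% of probe sets passed in atcsp1-1, 5.69% in CSP1-FH and 10.8% in HF-RPL18. At an unadjusted p below 0.05 in limma there were 1, 0 and 0 genes.

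RPP2C read 6.02 and 6.97 in cold total RNA of atcsp1-1, against 4.87 and 6.33 without stress, a difference of 0.90 (adjusted p = 0.561) with overlap. In CSP1-FH it read 6.44 and 7.01 in the cold and 5.46 and 5.80 without stress, a difference of 1.10 (SE 0.60, adjusted p = 0.425) without overlap, and in HF-RPL18 the difference was 0.15. In that CSP1-FH comparison 54.3% of all probe sets did not overlap. RPP0C read 7.30 and 7.59 in cold total RNA of atcsp1-1 and 6.59 and 6.94 without stress (0.68, SE 0.28, adjusted p = 0.174), 0.54 in CSP1-FH and 0.02 in HF-RPL18. Each group of atcsp1-1 and CSP1-FH holds 2 arrays. With the replicate number as a block RPP0C passed in atcsp1-1 and RPP2C in CSP1-FH, lines whose numbers were not taken as pairing the arrays. No paralog pair passed for cold over non-stress in total RNA (exact permutation, adjusted p at least 0.173), and the difference of the cold response between atcsp1-1 and HF-RPL18 or CSP1-FH was not called for any of the 10 genes in limma, with 0 of 10 at an unadjusted p below 0.05 (0% of probe sets called in both).

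In polysomal RNA 0 of 10 genes passed in the cold (6.28% of probe sets in atcsp1-1, 4.58% in CSP1-FH and 9.06% in HF-RPL18, limma), with 0 at an unadjusted p below 0.05 in each line. RPP2C stood at 0.70, 0.72 and 0.13 in these lines. Cold minus non-stress of the polysomal over total difference was called for 0 of 10 genes in each line (0% of probe sets in each), again with 0 at an unadjusted p below 0.05.

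CSP1-IP RNA of HF-RPL18 was where cold went with lower values. All 10 differences were negative, 2 of them positive after loess normalisation (RPP0B 0.13 and RPP0C 0.31), and 6 passed, where 28.5% of probe sets passed: RPP2C −1.93 (SE 0.49, adjusted p = 0.00457), RPP1C −1.05 (adjusted p = 0.00415), RPP1B −1.04 (adjusted p = 0.00347), RPP2B −0.79 (adjusted p = 0.0144), RPP2D −0.74 (adjusted p = 0.00643) and RPP1A −0.54 (adjusted p = 0.0302). All 6 belong to the P1 and P2 families, and the P0 genes stood at −0.67, −0.20 and −0.04 (RPP0A, RPP0B and RPP0C) and RPP3A at −0.52. That split rested on single arrays: without cold array 1 RPP0A was called (−1.18, adjusted p = 0.00187), and RPP3A was called without cold array 1 (−0.64) or 2 (−0.60) or non-stress array 2 (−0.72). RPP2C read 7.42, 6.89 and 5.25 in the cold and 8.78, 8.25 and 8.33 without stress, without overlap, as for 24.9% of all probe sets. RPP1C read 10.74, 10.38 and 9.28 in the cold and 11.20, 10.85 and 11.51 without stress.

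The third cold array was the lowest of its group for each of the 10 genes except RPP1B. Without it 3 genes passed, and RPP2C stood at −1.30 (adjusted p = 0.0519), RPP2B at −0.61 and RPP1A at −0.38, no longer called. The RPP1A call was also lost without non-stress array 1 (−0.50) or 2 (−0.51), and the RPP2B call without non-stress array 3 (−0.72). After loess normalisation 3 genes were called. When only the 2 groups compared entered the fit, and with array weights, 0 were. Over all probe sets 634 and 725 were then called, against 6491 in the main fit. In that main fit, with the deposited values, the 67 other 60S genes went the same way, with 37 lower and 1 higher and a median of −0.75.

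In CSP1-FH the CSP1-IP cold response was called for 0 of 10 genes (8.65% of probe sets, limma, 1 gene at an unadjusted p below 0.05), with RPP2C at −0.08 and RPP0B at 0.60. Cold minus non-stress of CSP1-IP over total RNA was called for 0 of 10 in CSP1-FH (0.101% of probe sets, 0 at an unadjusted p below 0.05) and 0 of 10 in HF-RPL18 (4.48% of probe sets, 7 at an unadjusted p below 0.05), where RPP2C stood at −2.08 (SE 0.69, adjusted p = 0.0776). In HF-RPL18 4 genes passed without cold CSP1-IP array 1 (RPP0A −1.53, RPP2C −2.53, RPP1B −1.23 and RPP1C −1.20) and RPP2C alone without array 2 (−2.26).

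**Figure D5:**
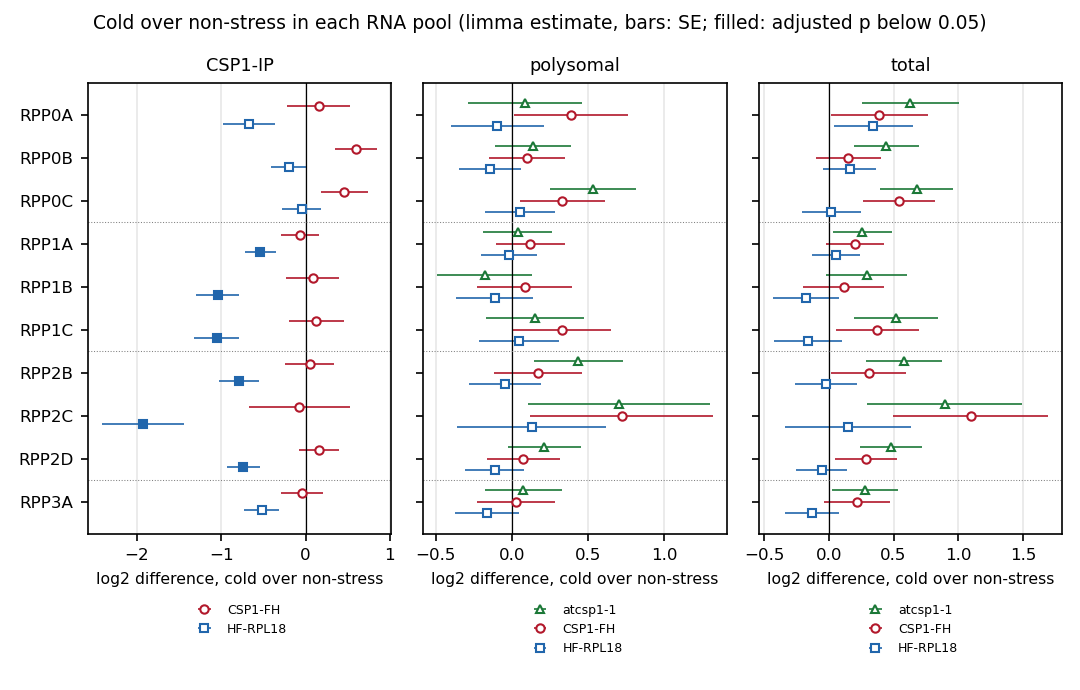
Log2 differences of cold over non-stress (horizontal axes, bars are SE from limma) for the 10 stalk genes in CSP1-IP, polysomal and total RNA of each line; filled symbols had an adjusted p below 0.05. The 6 called values are those of P1 and P2 genes in HF-RPL18 CSP1-IP RNA, between −1.93 and −0.54.

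The lines were also compared within each pool. In total RNA atcsp1-1 differed from CSP1-FH in 0 of 10 genes in the cold (0.0044% of probe sets passed) and 0 without stress (0%), and from HF-RPL18 in 0 in the cold (0.0044%) and 0 without stress (0.00879%). In polysomal RNA the same comparisons called 0 genes each, with 0.0044% and 0.0044% of probe sets against CSP1-FH and 0.0044% and 0.00879% against HF-RPL18. CSP1-FH over HF-RPL18 called 0 genes in total RNA (0.0044% in the cold and 0.00879% without stress) and in polysomal RNA (0.0044% and 0.00879%). In all 12 comparisons 0 of 10 genes had an unadjusted p below 0.05 in limma's test. In cold total RNA all 10 genes stood above HF-RPL18 in atcsp1-1 (0.13 to 0.51) and in CSP1-FH (0.06 to 0.70), where loess normalisation turned RPP0B to −0.03. Both comparisons share the HF-RPL18 arrays.

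In CSP1-IP RNA, CSP1-FH stood above HF-RPL18 in the cold for 4 of 10 genes (7.22% of probe sets passed): RPP1C by 1.10 (adjusted p = 0.0238), RPP2D by 0.96 (adjusted p = 0.00974), RPP0B by 0.84 (adjusted p = 0.0256) and RPP1A by 0.67 (adjusted p = 0.0463). RPP2D read 9.81 and 9.97 in CSP1-FH and 9.30, 8.93 and 8.56 in HF-RPL18. The number called was 1 without HF-RPL18 cold CSP1-IP array 3, 7 without array 1, and 1 or 0 without CSP1-FH cold CSP1-IP array 1 or 2. Loess normalisation, array weights and a fit of only the 2 groups each gave 0. Over all probe sets these called 1036, 5 and 0, against 1642 in the main fit. Without stress 0 of 10 genes passed (3.63% of probe sets, 0 at an unadjusted p below 0.05), and the line difference of CSP1-IP over total RNA was called for 0 genes in the cold (0.0572%, 1 at an unadjusted p below 0.05) and 0 without stress (0.0264%, 0 at an unadjusted p below 0.05).

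The genes with a pattern most like a stalk gene were taken by Pearson's r of the 16 group means among probe sets of 1 gene. Group means of a pool share its preparation and lie together, so these values describe the pools more than independent samples. For RPP0A the 3 nearest were AT5G23330 (0.99), AT4G12760 (0.99) and AT4G18400 (0.99). For RPP0C they were AT3G02650 (0.97), AT2G36290 (0.96) and AT4G17260 (0.96), and for RPP0B AT2G43880 (0.97), AT3G43020 (0.95) and AT4G39550 (0.95). The P1 genes had AT1G08210 (0.95), AT1G16790 (0.94) and AT3G02080 (0.94) for RPP1A, AT5G19570 (0.91), AT1G73440 (0.88) and AT1G57770 (0.87) for RPP1B, and AT5G20130 (0.88), AT4G17390 (0.88) and AT3G24830 (0.87) for RPP1C. For RPP2B they were AT5G28060, AT5G27770 (0.91 each) and AT5G27850 (0.90), and for RPP2C AT5G23900 (0.97), AT3G56340 (0.96) and AT3G02560 (0.95). RPP2D had another stalk gene, RPP1A, as its nearest (0.92), before AT1G77750 (0.91) and AT4G25740 (0.90), and RPP3A had AT3G18940 (0.92), DAYSLEEPER (0.88) and AT3G22520 (0.88).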

How the data were processed

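Rosette RNA was hybridised to 38 Affymetrix ATH1 arrays. The deposited values are log2 values that the authors made with RMA, per the submitters' processing notes; its version, and whether RMA was run once over all arrays, was not stated in the labels. Of 22810 probe sets 64 controls were left out; of the other 22746, 13513 (59.4%) had 1 gene in the platform annotation, 503 several and 8730 none. RefSeq TAIR10.1 served for names and neighbours. No detection calls were used, and the number of arrays limits precision.

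A mean per group was fitted to all 38 arrays with limma 3.58.1 (lmFit, eBayes; R 4.3.3; 22 residual degrees of freedom), and p-values were adjusted by Benjamini-Hochberg over all 22746 probe sets, with calls below 0.05. Adjusted p-values without another test named are from it. This fit gave each probe set the same spread in all pools, although replicates varied more in CSP1-IP RNA. SE and p-values can therefore be too small for CSP1-IP comparisons and too large for those of polysomal and total RNA. Paralog pairs were tested by 2-sided exact permutation within strata (Python 3.11.15, numpy 2.4.6, pandas 2.3.3). Both were tested on simulated data. Alternatives were cyclic loess, subtraction of array medians, a filter on dim probe sets, array weights, only the groups compared, no CSP1-IP arrays, the replicate number as a block and leaving out each array. In HF-RPL18, deviations of same-numbered total and polysomal arrays correlated above 0.1 in 18 of 18 pairs (0.19 to 0.73), so these numbers were taken as pairing the arrays. In the other lines (8 of 12 pairs in CSP1-FH, 10 of 12 in atcsp1-1), and with CSP1-IP arrays (12 of 27 in HF-RPL18, 10 of 18 in CSP1-FH), they were not. The 2 arrays of a group deviate by mirrored amounts, so in CSP1-FH and atcsp1-1 each correlation enters these counts 2 times. Total and polysomal arrays of the same condition correlated at 0.47 to 0.59 in these 2 lines. Whether the numbers pair their arrays was not tested further.

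All 10 stalk genes are named, with other stalk genes and partners that had a single-gene probe set and, for each of the 10, the 3 genes of most similar pattern. The members and lists were chosen with earlier results of these data known. A list of 60S genes from the annotation held none, so 115 loci were listed by hand after the data were seen, 67 of them with their own probe set.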

Additional observations from a re-analysis of the deposited data

Results flagged for a closer look

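Some genes moved in opposite directions in a pair of comparisons, with arrays that did not overlap within each, in groups of 2 or 3 arrays. In the cold RPP1B stood at −0.27 (log2) in polysomal over total RNA of atcsp1-1 and at 0.20 in CSP1-FH, and the difference was not tested. RPP0C stood at 0.19 in CSP1-FH over HF-RPL18 CSP1-IP RNA in the cold and at −0.31 without stress, and this difference was not tested either. After loess normalisation the cold value was −0.11. None of these 4 values was called in limma. Arrays did not overlap for 45.8% (atcsp1-1) and 47.8% (CSP1-FH) of all probe sets in the RPP1B comparisons. In those of RPP0C the shares were 21.8% in the cold and 24.6% without stress.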

How the results depend on the processing

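RPP0A kept its direction and call between CSP1-IP RNA and both other pools in all alternatives run. Of the values called with the deposited scaling, 1 changed sign: RPP0C between CSP1-IP and total RNA in cold HF-RPL18, at 0.075 after loess normalisation. RPP1A between CSP1-IP and polysomal RNA there was called in opposite directions after subtraction of array medians (−0.47) and loess normalisation (0.56). The cause was not tested. Loess normalisation gave 6 genes called between CSP1-IP and total RNA in CSP1-FH in the cold, 9 without stress and 6 in HF-RPL18 in the cold; between CSP1-IP and polysomal RNA of CSP1-FH it gave 7 in the cold and 9 without stress; for cold in CSP1-IP RNA of HF-RPL18 it gave 3, and for CSP1-FH over HF-RPL18 in cold CSP1-IP RNA 0. Array weights gave 3 in non-stress CSP1-FH and 1 in cold HF-RPL18 for CSP1-IP over total RNA, 2 in cold HF-RPL18 for CSP1-IP over polysomal RNA, 1 for polysomal over total RNA in cold HF-RPL18, 2 for cold in total RNA of atcsp1-1 (RPP0C and RPP2D), and 0 for both cold CSP1-IP comparisons named above. With only the groups compared, CSP1-IP over total RNA gave 3 in non-stress CSP1-FH, 1 in cold and 3 in non-stress HF-RPL18, CSP1-IP over polysomal RNA gave 3 in cold and 3 in non-stress HF-RPL18, and both cold CSP1-IP comparisons gave 0; fewer arrays then set the spread. Without CSP1-IP arrays polysomal over total RNA gave 1 in cold HF-RPL18.

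With the replicate number as a block, 1 gene passed for cold in total RNA of atcsp1-1 (RPP0C, 0.68), 1 in CSP1-FH (RPP2C, 1.10), and 2 for cold minus non-stress of CSP1-IP over total RNA in HF-RPL18 (RPP2B −0.77 and RPP2C −2.08). It also called RPP2C in CSP1-FH between CSP1-IP and total RNA in the cold (1.18) and between CSP1-IP and polysomal RNA without stress (1.43), RPP2D in CSP1-FH between CSP1-IP and total RNA without stress (0.58), and in HF-RPL18 RPP2B (0.52, non-stress) and RPP1C (−0.60, cold) between CSP1-IP and total RNA, RPP2D (−0.41, cold) between CSP1-IP and polysomal RNA and RPP3A (−0.52) for cold in CSP1-IP RNA, all groups whose numbers were not taken as pairing the arrays. In total and polysomal RNA of HF-RPL18, where they were, the block changed no single-gene call. Over all 3 lines the block added the paralog pair RPP2C minus RPP2D for polysomal over total RNA (0.42). Of these lines only HF-RPL18 had numbers taken as pairing the arrays. Paralog pairs called for CSP1-IP over total RNA were 0 in CSP1-FH alone, where the smallest exact permutation p is 0.0556 and no pair can pass.

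Leaving out 1 array gave 2 to 3 genes in cold and 3 to 4 in non-stress CSP1-FH and 2 to 4 in cold and 4 to 7 in non-stress HF-RPL18 for CSP1-IP over total RNA. For CSP1-IP over polysomal RNA it gave 3 in cold and 2 to 3 in non-stress CSP1-FH, and 4 to 6 in cold and 3 to 5 in non-stress HF-RPL18. It gave 3 to 8 for cold in CSP1-IP RNA of HF-RPL18, 0 to 7 for CSP1-FH over HF-RPL18 in cold CSP1-IP RNA, 0 to 4 for cold minus non-stress of CSP1-IP over total RNA in HF-RPL18, and 7 to 8, 6 to 7 and 0 to 1 paralog pairs for CSP1-IP over total, polysomal over total and cold over non-stress. The 1 came without HF-RPL18 arrays numbered 2 or atcsp1-1 arrays numbered 1 or 2. Where 1 array was left in a group, it was assumed to vary like the other groups. The array-to-array spread was wider in CSP1-IP RNA (SD of deviations 0.30 to 0.50) than in polysomal (0.17 to 0.28) and total RNA (0.17 to 0.26), and groups of 2 or 3 arrays limit all single-gene calls.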
